A study of Mus musculus with 6 samples.

Results

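The poly(A) tail genes of a pooled growth screen in mouse embryonic stem cells were examined through their guide RNAs. They were the guides whose name gives Pabpc1, Pabpc4 or Cnot1 as the host gene, 6 of the 151 named guides and 3 of the 73 host genes. All 6 guides were counted in each library and passed the filter on low counts, at least 10 counts in at least 3 libraries. Per the labels, the cells were of the C57BL/6 embryonic stem cell line #693 and had been infected with pooled lentivirus of lentiCRISPR v2, a vector that carries Cas9 together with the guide. The groups were day 0 and day 10, with 3 libraries each. Both groups carried the same pool, and the labels do not say how day 0 relates to infection or selection. The labels call the libraries biological replicates without saying what was separate, so p-values measure the spread between these libraries, which may be technical.

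The guides were designed against upstream translons, short reading frames that ribosomes translate ahead of an mRNA's main coding sequence. That coding sequence was therefore not the intended target, and host mRNA and protein were not measured here. In such a screen a guide that slows growth becomes rarer with time.

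Cytoplasmic poly(A)-binding proteins coat the tail of an mRNA, contact the cap-binding complex through its scaffold eIF4G and promote translation. Pabpc1 encodes the main one, which also binds an A-rich stretch in the leader of its own mRNA and limits its own synthesis. Pabpc4 encodes a closely related protein. Cnot1 encodes the scaffold of CCR4-NOT, the complex that shortens poly(A) tails before decapping and decay, and subunits of this complex are known to help embryonic stem cells keep their identity.

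The guide sequences are shown first, because for Pabpc1 and Cnot1 the members of a pair read the same stretch of DNA on opposite strands. Each is written 5′ to 3′. Capitals in the Pabpc1 and Cnot1 guides mark the bases that the partner guide reads on the other strand, and capitals in the Pabpc4 guides mark G and C.
Pabpc1 guide 1: aaaatccgCGTCTCCCCCGC
Pabpc1 guide 2: agtctccgGCGGGGGAGACG
Pabpc4 guide 1: CGaaGGGCaGtGCGGaCaCG
Pabpc4 guide 2: GtGCGGCCaGCCGGGGCGCG
Cnot1 guide 1: TCAGAACAGAGTAAGAcact
Cnot1 guide 2: TCTTACTCTGTTCTGAaaca

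The Pabpc1 guides overlapped by 12 bases, and the Cnot1 guides by 16. Joined on the strand of guide 1, they gave the following stretches, with the shared bases in capitals.
Pabpc1, both guides joined: aaaatccgCGTCTCCCCCGCcggagact
Cnot1, both guides joined: tgttTCAGAACAGAGTAAGAcact
Cas9 cuts 3 bases before the NGG motif next to its target. In the Pabpc1 stretch of 28 bases, guide 1 would cut after base 17 and guide 2 after base 11, which is 6 bases apart. The bases next to both Pabpc1 guides in this stretch are CGG, which has the form of that motif. In the Cnot1 stretch of 24 bases the cuts would lie after base 21 and after base 3, 18 bases apart. The motifs of the Cnot1 guides lie outside it. The members of these pairs are therefore not independent probes of their host. Of 70 hosts with 2 guides, 9 had guides that overlapped at their ends on opposite strands by at least 10 bases. The longest run that the Pabpc4 guides shared was 6 bases, and they did not overlap at their ends.

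Base composition set the Cnot1 guides apart from those of Pabpc1 and Pabpc4, whose ranges overlapped. The Cnot1 guides held 40% and 35% G and C, the Pabpc1 guides 65% and 75% and the Pabpc4 guides 70% and 90%. The median of the 145 targeting guides was 60%. Only 2 of the 145 were at least as rich in G and C as Pabpc4 guide 2, and 7 were at least as poor as Cnot1 guide 2. Both Pabpc1 guides hold CGTCTC on one strand or the other, the recognition site of BsmBI, the enzyme with which the vector was opened for cloning. This site was present in 5 of the 145 targeting guides (3.45%, both strands searched). The RefSeq promoter window of Pabpc4 (GRCm38.p6) held neither of its guides in full on either strand. The promoters of Pabpc1 and Cnot1 and the positions of the guides in the genome were not analysed here.

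Named guides summed to between 21991 counts, in day 10 replicate 3, and 784149 counts, in day 10 replicate 2. Day 10 replicate 3 was the shallowest library, with 77 to 963 counts per guide of these hosts. Day 10 replicate 1 stood apart in base composition. Its guide levels rose by a log2 of 0.19 per 10 percentage points of G and C relative to the mean of the libraries, while the slopes of the other 5 libraries lay between −0.06 and −0.02. The 6 control guides, which target nothing or a safe site, had log2 fold changes between −0.42 and 0.55 with a median of 0.06, and 0 of the 6 passed the adjusted threshold in edgeR, where 1 had an unadjusted p under 0.05. The DESeq2 test called 0 of them as well (2 at an unadjusted p under 0.05), and limma voom with a variance per day called 2.

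Pabpc1 supplied the most abundant guides of the pool at day 0. Pabpc1 guide 2 ranked first in each of the 6 libraries. It took between 4.50% and 4.65% of the named counts at day 0 and between 4.01% and 4.44% at day 10. Pabpc1 guide 1 ranked second in each day 0 library and from rank 2 to rank 4 at day 10. Pabpc1 guide 2 was 10.6 to 11.1 times as frequent as the median counted guide at day 0, and Cnot1 guide 1 was 0.94 to 1.03 times as frequent. These starting levels describe the pool as counted at day 0, which per the labels was made from equimolar oligo pairs. What part growth before day 0 had in them was not tested.

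The comparison of day 10 with day 0 asks whether cells that carried a guide became rarer. In the main edgeR fit, guides of Pabpc4 and Cnot1 fell, and those of Pabpc1 changed little. The guide calls of Cnot1 and its contrast with Pabpc1 depended on the trend in G and C content, as given below. Of the 6 guides, 4 passed an adjusted p of 0.05 in edgeR's quasi-likelihood test, both of Pabpc4 and both of Cnot1, and all 4 were lower at day 10. Among all 136 tested guides, 14.7% were called lower. With the replicate block 3 of the 6 passed, all lower, against 6.62% of the tested guides. The days did not overlap for the same 4 guides, against 20.6% of the tested guides in this direction. The median log2 fold change of the 6 guides was −0.34, against 0.0024 for all tested guides. Since the genes were chosen with earlier results of these data known, these counts are descriptions.

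Pabpc4 guide 2 showed the largest change of the 6. Counts per 1e6 named counts (CPM, after trimmed mean of M-values scaling) were 16222, 15112 and 15420 in day 0 replicates 1 to 3. They were 8872, 10284 and 9256 in day 10 replicates 1 to 3, so every day 10 library lay below every day 0 library. The means were 15585 ± 573 and 9471 ± 730 CPM (SD, n = 3 per day). This was a log2 change of −0.71 with an SE of 0.08 and an adjusted p of 3.4e-04 in edgeR, or a level of 0.610 times that of day 0 (95% interval 0.542 to 0.688). It stood at rank 8 from the lowest of the 136 guides. It kept an adjusted p under 0.05 in each of the 6 fits without 1 library and with the replicate block, and its adjusted p ran from 1.3e-13 to 0.0556 over all alternatives.

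Pabpc4 guide 1 fell less. Its CPM was 18647, 19711 and 19063 at day 0 and 17377, 16164 and 14701 at day 10. The days did not overlap, and day 10 replicate 1 lay closest to day 0. The log2 change was −0.24 with an SE of 0.07 and an adjusted p of 0.0394 in edgeR, a level of 0.849 times that of day 0 (95% interval 0.763 to 0.945). This call was lost with the replicate number as a block (edgeR adjusted p = 0.0706), without day 0 replicates 1, 2 or 3 (0.163, 0.168 and 0.177) and without day 10 replicate 2 (0.0893). In total its adjusted p ran over the alternatives from 4.3e-05 to 0.617.

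Cnot1 guide 2 fell by 0.50 on the log2 scale, with an SE of 0.11 and an adjusted p of 0.0103 in edgeR. Its CPM was 8559, 8036 and 8141 at day 0 and 4982, 6347 and 6352 at day 10. No day 10 library reached a day 0 library, and day 10 replicate 1 was the lowest. Cnot1 guide 1, which reads 16 of the same bases, had 4304, 3904 and 4287 CPM at day 0 and 2903, 2951 and 3494 CPM at day 10. Its days did not overlap either, and it fell by 0.45 on the log2 scale, with an SE of 0.11 and an adjusted p of 0.0223 in edgeR. Both kept an adjusted p under 0.05 with the replicate block. Without day 0 replicates 1, 2 or 3 the adjusted p of guide 1 was 0.142, 0.0666 and 0.177, and without day 0 replicates 1 or 2 that of guide 2 was 0.0709 and 0.0572. Over all alternatives the adjusted p ran from 1.2e-04 to 0.126 for guide 2 and from 0.00167 to 0.277 for guide 1.

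The Cnot1 values moved with the base composition of the guides. With a linear trend in G and C content removed from each library, the log2 fold changes were −0.24 for guide 1 and −0.26 for guide 2 (edgeR adjusted p = 0.244 and 0.0893). Together with the replicate block they were −0.24 and −0.26 as well (edgeR adjusted p = 0.202 and 0.110). Without day 10 replicate 1, the library whose trend stood apart, they were −0.45 and −0.38 (edgeR adjusted p = 0.00270 and 1.2e-04). The same removal of the trend moved Pabpc4 guide 2 the other way, to −0.96, and Pabpc4 guide 1 to −0.33 (edgeR adjusted p = 0.0251 for each). These 2 Pabpc4 guides were the only ones of the 6 called after the removal, which called 7.35% of all tested guides lower, or 5.15% together with the block. The part of base composition in these changes was not tested further.

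Neither Pabpc1 guide passed the threshold. Pabpc1 guide 2 had 46281, 45785 and 44508 CPM at day 0 and 40513, 44576 and 43696 CPM at day 10, and the days overlapped. Its log2 change was −0.086 with an SE of 0.049 and an adjusted p of 0.238 in edgeR. Pabpc1 guide 1 had 30555, 31871 and 29446 CPM at day 0 and 28534, 30164 and 27134 CPM at day 10, again with overlap. Its log2 change was −0.091 with an SE of 0.057 and an adjusted p of 0.284 in edgeR. The 95% intervals of the log2 fold change were −0.19 to 0.022 for guide 2 and −0.22 to 0.035 for guide 1. In this fit, a change in either direction as large as that of the Cnot1 guides lies outside both. The contrast depended on the trend in G and C content. With that trend removed, guides 1 and 2 were at −0.13 and −0.20 for Pabpc1 and at −0.24 and −0.26 for Cnot1. Over all alternatives the adjusted p ran from 0.0770 to 0.895 for guide 1 and from 0.0418 to 0.849 for guide 2, which passed with library sizes set by the summed control counts.

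With the counts of a host's guides summed, all 3 hosts passed the adjusted threshold and were lower at day 10, against 22.4% of all 67 tested hosts. Their sizes differed. Pabpc4 averaged 34725 ± 211 CPM at day 0 and 25551 ± 1383 CPM at day 10 (mean ± SD, n = 3 each), a level of 0.741 times that of day 0 (95% interval 0.690 to 0.796, edgeR adjusted p = 8.3e-06). Cnot1 averaged 12410 ± 462 CPM at day 0 and 9010 ± 1012 CPM at day 10 (mean ± SD, n = 3 each), a level of 0.713 times that of day 0 (95% interval 0.625 to 0.813, edgeR adjusted p = 5.2e-04). For these 2 hosts the days did not overlap, as for 20.9% of the tested hosts in this direction, and each kept an adjusted p under 0.05 in the 6 fits without 1 library. With the trend in G and C content removed, Cnot1 was at −0.25 (edgeR adjusted p = 0.0408) and Pabpc4 at −0.59 (edgeR adjusted p = 1.7e-04) on the log2 scale. Over all alternatives the adjusted p ran from 1.0e-05 to 0.137 for Cnot1 and from 3.8e-11 to 0.229 for Pabpc4.

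The summed Pabpc1 guides averaged 76149 ± 1945 CPM at day 0 and 71539 ± 2912 CPM at day 10 (mean ± SD, n = 3 each), a level of 0.940 times that of day 0 (95% interval 0.900 to 0.983, edgeR adjusted p = 0.0255). Day 0 libraries had 76836, 77656 and 73954 CPM and day 10 libraries 69047, 74739 and 70829 CPM, so day 10 replicate 2 lay above day 0 replicate 3. The call was lost without day 0 replicate 2, day 10 replicate 1 or day 10 replicate 3 (edgeR adjusted p = 0.137, 0.0773 and 0.0949). It was lost as well in the DESeq2 test (adjusted p = 0.233) and in limma voom with a variance per day (adjusted p = 0.137). With the trend in G and C content removed, the log2 change of Pabpc1 was −0.17 (edgeR adjusted p = 0.187). Over all alternatives the adjusted p ran from 0.00278 to 0.909. A fall of Pabpc1 that holds across tools and libraries was thus not seen.

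Single screens, which the column headers number from 1 to 3, pointed the same way. All 6 guides had a lower CPM at day 10 than at day 0 in each of the 3 screens, as did 24.3% of the 136 tested guides. The exact 95% counting interval of Pabpc1 guide 2 included 0 in screens 2 and 3. That of Cnot1 guide 1 included 0 in screen 3. Pabpc4 summed over its guides changed by a log2 of −0.41, −0.40 and −0.53 in screens 1 to 3. Its exact 95% counting interval lay below 0 in each, the widest being −0.65 to −0.40 in screen 3, where day 10 rested on 528 counts. Cnot1 changed by −0.71, −0.36 and −0.34, and its interval in screen 3, from −0.54 to −0.14, rested on 217 counts. In screen 1, whose day 10 library had the trend with G and C, the Cnot1 interval of −0.79 to −0.62 did not meet those of the other 2 screens. Pabpc1 changed by −0.15, −0.055 and −0.062, and its interval in screen 3 included 0. These intervals are Clopper-Pearson intervals of the count ratio and cover counting error only, since reads without molecular identifiers are not independent molecules.

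The Pabpc4 guides differed in how far they moved. The ratio of guide 2 to guide 1 within a library needs no scaling, and its log2 was −0.20, −0.38 and −0.31 at day 0 and −0.97, −0.65 and −0.67 at day 10. Each day 10 library lay below each day 0 library. The shift was −0.47 ± 0.12 (SE, n = 3 per day; exact two-sided permutation p = 0.1, the smallest that 3 libraries against 3 allow, and 0.3 after Benjamini-Hochberg adjustment over 3 hosts). The shift in this ratio was −0.77, −0.27 and −0.36 in screens 1 to 3. For the overlapping pairs the shift was 0.013 ± 0.059 for Pabpc1 (SE, exact two-sided permutation p = 1) and −0.071 ± 0.10 for Cnot1 (SE, exact two-sided permutation p = 0.6). With libraries left out in turn it ran from −0.038 to 0.053 for Pabpc1, and was negative without day 0 replicate 2 (−0.012) and without day 10 replicate 3 (−0.038). For Cnot1 it ran from −0.165 without day 10 replicate 2 (exact two-sided permutation p = 0.1, the smallest possible there) to −0.0025 without day 10 replicate 1. With all libraries, neither overlapping pair showed a shift beyond the spread between libraries, which does not show that their members act alike. With the trend in G and C content removed from each library, an alternative chosen after seeing the data, the shift was −0.64 for Pabpc4 and −0.072 for Pabpc1, whose sign turned. It was −0.028 for Cnot1.

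Ratios between hosts within a library compared their changes directly. Cnot1 fell relative to Pabpc1 by a log2 of −0.38 ± 0.09 (SE, n = 3 per day) and Pabpc4 relative to Pabpc1 by −0.35 ± 0.05 (SE, n = 3 per day). In both ratios no day 10 library overlapped day 0, and the exact two-sided permutation p was 0.1, or 0.15 after adjustment over the 3 pairs of hosts. Cnot1 relative to Pabpc4 shifted by −0.024 ± 0.13 (SE, exact two-sided permutation p = 0.8), and by 0.090 without day 10 replicate 1. The ratios with Cnot1 depended on the trend in G and C content, in which the hosts differ. With that trend removed, Cnot1 relative to Pabpc1 shifted by −0.088 ± 0.19 (SE, exact two-sided permutation p = 0.8) and the days overlapped. Cnot1 relative to Pabpc4 then shifted by 0.32 ± 0.19 (SE, exact two-sided permutation p = 0.1), with every day 10 library above every day 0 library. Pabpc4 relative to Pabpc1 shifted by −0.41 ± 0.018 (SE, exact two-sided permutation p = 0.1) and still did not overlap. Relative to Pabpc1, the days thus separated with and without the trend for Pabpc4, and for Cnot1 only with the trend left in.

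The control guides served as a background measured in the same libraries. The log2 ratio of the summed Pabpc4 guides to the summed control guides was 1.50, 1.40 and 1.47 at day 0 and 0.97, 0.98 and 0.70 at day 10, without overlap. That is a shift of −0.57 ± 0.10 (SE, n = 3 per day; exact two-sided permutation p = 0.1). Cnot1 shifted by −0.59 ± 0.10 and Pabpc1 by −0.22 ± 0.07 against the controls (SE, n = 3 per day), with the same exact permutation p and no overlap. The choice of controls mattered. Against the safe-targeting guides alone the shifts were −0.28 for Pabpc4, −0.30 for Cnot1 and 0.077 for Pabpc1, so the sign of Pabpc1 turned. The exact two-sided permutation p was then 0.3 for Pabpc4, 0.1 for Cnot1 and 0.7 for Pabpc1. Only Cnot1 thus kept the smallest possible p. Against the non-targeting guides alone the shifts were −0.78, −0.80 and −0.42 in the same order (exact two-sided permutation p = 0.1 for each). Non-targeting guides had 5793 counts and safe-targeting guides 2772 in day 10 replicate 1, and 662 and 600 in day 0 replicate 1.

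Pabpc4 guide 2, Cnot1 guide 2 and Cnot1 guide 1 had log2 fold changes below that of the lowest control guide, as did 11.8% of the tested guides. Without day 10 replicate 2 the lowest control guide was at −1.01, and 0 of the 6 guides lay below it. With the replicate block 1 of the 6 did, and likewise with the trend in G and C removed. With median-ratio size factors of the 6 control guides in edgeR, an alternative chosen after seeing the data, 0 of the 6 guides (3 at an unadjusted p under 0.05) and 0 of the 3 hosts (2 at an unadjusted p under 0.05) passed the adjusted threshold. Of all tested features, 0 of 136 guides (0%, 19 at an unadjusted p under 0.05) and 2 of 67 hosts (2.99%) passed, both hosts lower. Their log2 fold changes were then −0.41 for Pabpc4, −0.46 for Cnot1 and −0.070 for Pabpc1 (edgeR adjusted p = 0.229, 0.137 and 0.909). Scaling on the summed control counts instead left all 3 hosts under 0.05, along with 23.9% of all tested hosts in this direction.

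Of 87 listed genes of poly(A) tail binding, deadenylation, decapping, tail lengthening, termination and translation at the cap and tail, 4 were hosts in the pool. The only one besides the hosts above was Etf1, which encodes the factor that recognises stop codons in translation termination. Its summed guides had 4031, 4133 and 4019 CPM at day 0 and 5351, 5482 and 4084 CPM at day 10, and the days overlapped. It rose by 0.35 on the log2 scale (SE 0.11, adjusted p = 0.0160 in edgeR), opposite in sign to the poly(A) hosts. The call was lost with the replicate block (edgeR adjusted p = 0.0673) and without day 0 replicates 1, 2 or 3 (0.0612, 0.0553 and 0.0701), and with library sizes set by the summed control counts (0.192). Its adjusted p ran from 0.00190 to 0.243 over all alternatives. The change was 0.41 in screens 1 and 2 and 0.023 in screen 3, and neither Etf1 guide passed the threshold alone.

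Likeness to other hosts was measured as the root mean square difference of the log2 changes in the 3 screens. Among the closest to Pabpc4 were Trim28 (0.0496), which encodes a chromatin corepressor, and Hnrnpf (0.176), which encodes an RNA-binding protein. Among the closest to Cnot1 were Ptma (0.127), which encodes prothymosin alpha, and Rpl32 (0.189), which encodes a ribosomal protein. Closest to Pabpc1 were Ddx5 (0.103), Sat1 (0.108) and Elobl (0.116), none of which passed the threshold in edgeR. Among the poly(A) hosts the difference was 0.204 between Pabpc4 and Cnot1 and 0.364 between Pabpc1 and Pabpc4. Trim28, Hnrnpf, Ptma and Rpl32 were picked as among the closest of all other tested hosts. That their differences are smaller than that between Pabpc4 and Cnot1 can follow from this choice and was not tested.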

How the data were processed

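Guide RNA cassettes of a pooled CRISPR-Cas9 screen were counted in 6 libraries, 3 of day 0 and 3 of day 10. The authors deposited raw counts per guide sequence, per the file headers. Bowtie2 2.3.4.3 is named in the submitters' processing notes, and the counting rule is not given in the sources used here. A missing entry was read as 0. Sequences without a name, 1.25% to 1.48% of a library, were left out of library sizes and tests.

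The poly(A) genes and the pathway list were chosen with earlier results of these data known. All guides of these genes are described, along with the listed pathway genes in the pool and, for each host, the 3 hosts with the closest changes per screen, except for an item that is not reported here.

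The main test, edgeR 4.0.16's quasi-likelihood test (R 4.3.3), used all named guides that reached 10 counts in 3 or more libraries, with TMM scaling, day as the only term and Benjamini-Hochberg adjustment over 136 guides or 67 hosts at 0.05. Guides of 1 host were summed. The SE is the log2 fold change over the square root of F. The fit was tested on simulated data with the same spread in every library and no trend in G and C. The libraries here differ in both, so that check does not cover them. Ratios within a library were compared with exact two-sided permutation tests in Python 3.11.15.

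Per the file headers a number marks a screen, so libraries that share a number were taken as pairs. The pairing entered only the replicate block, the changes per screen and the sign-flip alternative of the ratios. The main edgeR test and the exact permutation tests did not use it. After subtraction of each day's mean, paired libraries correlated over guides at −0.093, −0.20 and −0.017 for numbers 1 to 3. No pair of libraries of 1 day agreed within sampling noise (chi-square per degree of freedom 2.38 to 74.0). Alternatives were DESeq2 1.42.0, other scalings and filters, the block, limma 3.58.1 voom, removal of a G and C trend, Psmd1 guide 2 left out (0 counts in 1 library), a threshold of 0.1 and each library left out. The screen values and ratios had alternatives of their own. Removal of the G and C trend from the ratios, by each library's slope over the tested guides, was added after seeing the data.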

Additional observations from a re-analysis of the deposited data

How the results depend on the processing

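Across 162 comparisons of the guides and hosts of Pabpc1, Pabpc4 and Cnot1 with alternatives, 133 kept their direction and their side of the threshold, 28 lost the call, 1 gained it and 0 changed direction. The fit with no count filter is not among them, because it tested the same guides and gave the same values. The comparisons with the looser adjusted threshold are among them, and all were counted in the 133. They reused the values of the main fit, so they could not lose a call or change direction. Their part of the 133 therefore says nothing about how stable the results are. The number of the 6 guides past the threshold was 4. It was 2 with the G and C trend removed, 2 with that trend and the replicate block, and 0 with median-ratio size factors of the control guides, which were chosen after seeing the data. It ran from 1 to 4 without single libraries, being 1 without day 0 replicate 1 or 2 and 2 without day 0 replicate 3. In those fits 3, 5 and 10 of all 136 guides were called, so calls were fewer over the whole pool. The number of hosts was 3, ran from 2 to 3 without single libraries (15 to 30 of all 67 hosts called), and was 0 with the median-ratio control factors. The replicate block left 3 guides and 3 hosts past the threshold, and Pabpc4 guide 1 was the only call to change among these guides and hosts.

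Over all guides, the calls numbered 29 of 136 (20 lower, 9 higher). There were 12 with the block (9 lower, 3 higher), 50 with voom and a variance per day, 10 with the G and C trend removed (10 lower, 0 higher), 24 with summed control counts (23 lower, 1 higher) and from 3 to 47 without single libraries. The cause was not tested.

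Against the safe-targeting guides alone Pabpc1 shifted by 0.077, and Pabpc4 by −0.28 (exact two-sided permutation p = 0.7 and 0.3). Cnot1 relative to Pabpc4 ranged from −0.14 to 0.090 without single libraries, turning sign without day 10 replicate 1, and was 0.32 with the G and C trend removed. Pabpc1 guide 2 relative to guide 1 ranged from −0.038 to 0.053, turning sign without day 0 replicate 2 (−0.012) or day 10 replicate 3, and was −0.072 with the G and C trend removed. With summed control counts as the scale, the log2 change of Pabpc1 was −0.28 in screen 1 and −0.31 in screen 3, that of Pabpc4 was −0.53 in screen 1 and −0.77 in screen 3, and that of Cnot1 was −0.58 in screen 3. With the replicate block, the ratios within a library cannot give an exact sign-flip p under 0.25. Day 10 replicate 3, with 77 counts for Cnot1 guide 1, limits the precision in screen 3.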

Other observations

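Sequences without a name included near relatives of the poly(A) gene guides. Of 176 unnamed sequences of 20 bases, 160 differed from a counted guide at 7 bases or fewer, and for 15 of these the closest guide was one of Pabpc1 (10), Pabpc4 (4) or Cnot1 (1). The Pabpc1 guides themselves took 6.84% to 7.74% of the named counts of a library. Those of Pabpc4 took 2.40% to 3.50% and those of Cnot1 0.78% to 1.29%. Each of the 15 had a single count in 1 library, set against 255247 counts of the 6 guides themselves, so they could not change any value above. They differed from their guide at 4 to 7 bases, here in capitals.
Near Pabpc1 guide 1: aaaatAAgcgtctcccAcTA
Near Pabpc1 guide 2: agtctccgTcTTTggaTacT
Near Pabpc4 guide 1: cgaagTgAagtgcTgacacT
Near Pabpc4 guide 2: gtgcggccaTccgTTgAgcT
Near Cnot1 guide 2: AcAAacActgttctgaaaca
Of the 79 differing bases in these 15 sequences, 37 were a guide G listed as T and 23 a guide C listed as A, together 75.9%. Over all 160 sequences these kinds made up 66.0% of 818 differing bases. Their origin was not tested.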
